A study of Mus musculus with 23 samples.

Results

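The genes described here are the enzymes that mammalian cells use to modify and conjugate foreign and endogenous small molecules, taken as every row of the count table whose symbol begins with Cyp1 to Cyp4 and a letter, Ugt1 or Ugt2, Gsta, Gstm, Gstp, Gstt, Gsto or Gstk and a digit, or Sult and a digit. The rule found 141 of 24917 gene loci, with 140 distinct symbols because Cyp3a41a has 2 loci. They comprised 85 Cyp, 18 Ugt, 20 Gst and 18 Sult loci. RNA depleted of ribosomal RNA was sequenced from colonic epithelium that had been released from whole mouse colon with EDTA. Male C57BL/6 mice (C57BL/6J in the study's methods) entered a diet at 6 weeks of age and stayed in the experiment for 43 weeks. LF mice ate a 10% fat diet throughout, HF mice a 60% fat diet throughout, and HFLF mice the high-fat diet for 15 weeks followed by the low-fat diet for 28 weeks. The labels give 2 batches without saying what was done separately in them. The study's methods put fewer mice on each diet than there are samples of it over both batches, so some samples may share a mouse. Batch 1 had 4 LF, 3 HF and 4 HFLF samples, and batch 2 had 4 LF, 3 HF and 5 HFLF samples. Total counts per sample ran from 29189922 to 65320947. Weight and adiposity were not used here, all mice were males of a single strain, and 3 HF samples a batch leave the HF mean exposed to any 1 library.

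Phase I enzymes, chiefly the cytochrome P450s encoded by the Cyp genes, oxidize lipophilic molecules. Phase II enzymes then attach a polar group: UDP-glucuronosyltransferases (Ugt) add glucuronic acid, glutathione S-transferases (Gst) add glutathione, and cytosolic sulfotransferases (Sult) add sulfate. The colonic epithelium meets dietary and microbial compounds from the lumen, and expresses a set of these enzymes that differs from that of the liver.

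Levels are given as CPM, the counts of a gene relative to those of its library, with library sizes scaled by the trimmed mean of M-values (TMM), and genes are compared with each other only as CPM per kilobase of exon. No count was present in any of the 23 samples for 25 of the 141 loci, and 63 loci had a mean above 1 CPM. A filter on low counts left 75 members to test in batch 1, 74 in batch 2 and 74 with both batches together, so the counts of calls below concern those and not the other loci. Cyp2c55, a P450 of the 2C subfamily, had the highest mean level of all members over the 23 samples, at 676 CPM per kb. The sulfotransferases Sult1a1 and Sult1d1 followed at 302 and 186 CPM per kb, then Gsto1 at 184, Ugt2b34 at 183 and Cyp2c65 at 121. Cyp2c55 alone made up 22.1% of the summed level per kb of all members, with 13.7% in HF of batch 2 and 29.7% in HFLF of batch 1 as the lowest and highest group values. Cyp2c55 and Sult1a1 were first and second in each of the 6 groups, but the places after them differed between batches. In each group of batch 2 Gsto1 came next, at 171 CPM per kb in LF against 156 for Ugt2b34, and in each group of batch 1 it came after Sult1d1 and Ugt2b34, at 181 in LF against 192.

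The samples were epithelial by their markers, with a summed level of 10 epithelial genes (led by Krt8) from 12839 to 17642 CPM. Markers of other tissues were low but present. The sum of 6 smooth muscle genes, led by Myh11, ranged from 0.545 to 50.3 CPM, and that of the 8 immune genes in the table (of 9 listed), led by Ptprc, from 22.2 to 86.0 CPM. Of the 6 hepatocyte markers, Alb, Apoa1, Serpina1a, Fgb and Hpx had means under 1 CPM, and the sum was nearly all Ttr. In bulk tissue, fewer cells of a type and less RNA per cell cannot be told apart.

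HF replicate 3 of batch 1 stood apart from the other libraries. Among the 74 members tested with both batches together, it was the highest or the lowest of the 11 batch 1 samples for 40, against 6 to 21 for the other 10. Its immune marker sum was 86.0 CPM against 22.2 to 43.2 in the other 22 samples, and the class II gene H2-Ab1 made up 58.8 CPM of it. Its smooth muscle sum was 0.545 CPM and its endothelial sum 6.84 CPM, the lowest of all 23. Its goblet cell sum, 18241 CPM, and its fibroblast sum, 2.91 CPM, were also the lowest of all 23, and its adipocyte sum, 17.2 CPM, was the highest. In batch 2, HFLF replicate 1 was the highest or the lowest of the 12 samples for 29 of the members (the lowest for 21), HF replicate 2 for 23 and LF replicate 1 for 20, against 4 to 16 for the other 9. That HFLF sample had the lowest absorptive colonocyte sum of all 23, 5806 CPM, and HF replicate 2 the lowest smooth muscle, fibroblast and endothelial sums of batch 2, at 0.849, 4.24 and 12.03 CPM. The HF against HFLF calls of members in batch 2 are given with and without HFLF replicate 1 and HF replicate 2, and those of marker genes with all samples only. The part of the marker differences in the diet comparisons was not tested. HF replicate 3 of batch 1 was singled out after its values were seen. Calls of members by edgeR with both batches are given with and without it. DESeq2 results are given only with it. Apart from family medians, so are the fold changes with both batches of members that edgeR did not call, such as Cyp2d12, Gsta3 and Gsto2. The batch 1 fold changes of single members are also given only with it.

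Among the families, the Cyp2 genes had the highest summed level, with batch means of 1308 ± 131 CPM per kb (SD, n = 4) in LF, 1296 ± 276 (n = 3) in HF and 1549 ± 299 (n = 4) in HFLF of batch 1. In batch 2 the same sums were 1002 ± 108 (n = 4), 908 ± 81.1 (n = 3) and 969 ± 139.5 (n = 5). The HF sums overlapped those of both other diets in each batch. Sult1 came next, at 536 ± 83.1 CPM per kb in LF of batch 1 and 637 ± 51.1 in LF of batch 2. The Cyp2 share of the sum of all members ran from 31.7% in HF of batch 2 to 42.8% in HFLF of batch 1. A single gene carried most of several families: Cyp3a13 held 97.4% of the Cyp3 sum, Gsto1 99.7% of Gsto, and Ugt2b34 81.5% of Ugt2. The 3 Cyp1 genes, whose products oxidize aromatic hydrocarbons, were at the limit of detection. Cyp1a1 had 31 counts in all, spread over 8 samples, Cyp1b1 17 counts over 11 samples, and Cyp1a2 3 counts in 1 sample. A floor of 3 counts corresponds to 0.0453 to 0.104 CPM, so differences of Cyp1 genes between diets were not detectable at this depth.

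**Figure D1:**
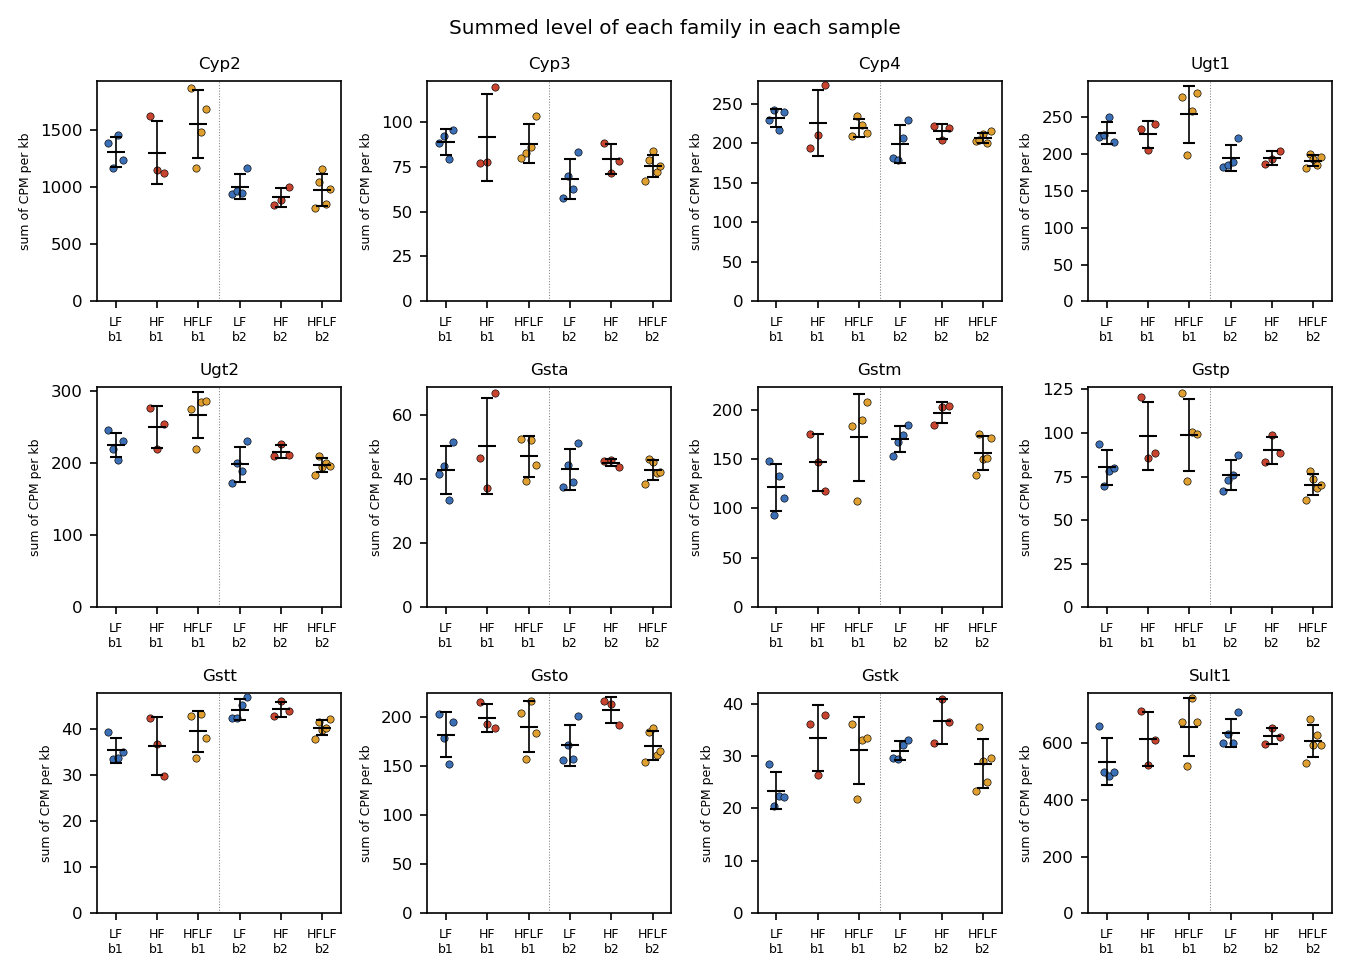
Summed level of 12 families in each sample (y axis, sum of CPM per kb of exon, from 0), with 1 point a sample, and the mean and SD of each diet group in batch 1 (b1) and batch 2 (b2). The diet groups overlap in most panels, and in batch 2 the Gstm, Gstp, Gstt and Gsto sums of the 3 HF samples lie above those of the 5 HFLF samples, whereas in batch 1 these sums overlap.

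The first question was whether mice kept on the high-fat diet differed from mice kept on the low-fat diet. With both batches together and batch as a covariate, 14 of 74 tested members were called in HF against LF by the quasi-likelihood F test of edgeR, where a call needs a Benjamini-Hochberg adjusted p below 0.05 together with a fold of more than 1.2, against 18.1% of all genes tested. Of these, 7 were higher in HF (9.0% of all genes were called higher) and 7 were lower (9.11%). The share of members called, 18.9%, was close to that of all genes. The median log2 fold change of the members was 0.01, and that of all genes -0.01. With both batches, p-values may count more samples than there were mice. DESeq2 called 19 of 73 members (19.8% of all genes), namely these 14 and Cyp2c65, Gsta3, Gsto2, Gstp1 and the pseudogene Cyp2d37-ps.

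When single libraries were left out, the share of all genes called in HF against LF changed as well as the count of members. With both batches the count was 4 without HF replicate 3 of batch 1 (where 11% of all genes were called, 5.97% higher and 5.04% lower), and all 4 members were higher in HF. It was 7 without LF replicate 3 of batch 1 (13.3% of all genes) or HF replicate 2 of batch 2 (12.6%), 8 without LF replicate 2 (13.0%) or HF replicate 1 (14.2%) of batch 1, and 23 without LF replicate 4 of batch 2 (22.2%). The even split was not kept, with 6 higher and 1 lower without LF replicate 3 of batch 1 (7.38% and 5.9% of all genes), 6 higher and 2 lower without LF replicate 2 (7.3% and 5.66%), 5 higher and 3 lower without HF replicate 1 (7.41% and 6.82%), 5 higher and 2 lower without HF replicate 2 of batch 2 (7.25% and 5.38%) and 13 higher and 10 lower without LF replicate 4 of batch 2 (12.1% and 10.1%). Within batch 2 alone, 1 of 74 members was called (7.44% of all genes). DESeq2 called 9 of 61 there (15.1%), and the fit of these 2 groups alone 5 of 73 (7.82%). Without LF replicate 4 the batch 2 count was 17 of 73 (17.9% of all genes), and it was 6 without HFLF replicate 1 (10.3%), 3 without HFLF replicate 2 (8.17%) and 2 without HFLF replicate 3 (6.39%). It was 0 in edgeR without LF replicate 1 (0.342%), LF replicate 2 (2.35%), LF replicate 3 (0.286%), HF replicate 2 (0.103%) or HF replicate 3 (0.337%), and 14 to 21 members then had an unadjusted p under 0.05 (18% to 30.6% of all genes). With all samples of batch 2, 26 members had such a p in edgeR (33.1% of all genes did). Within batch 1 alone 0 of 75 were called (0% of all genes) and 18 had an unadjusted p under 0.05 in edgeR (22.2% of all genes did). DESeq2 called 3 of 69 in batch 1 (3.59%), and edgeR 7 without HF replicate 2 (9.25%).

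The members higher in HF were 2 P450s of the 2C and 2J subfamilies, 4 glutathione transferases and 1 sulfotransferase. Cyp2c66, Entrez gene 69888 at chr19:39113898-39186756 (mm10) beside Cyp2c55 and Cyp2c65, encodes a P450 close to these. In batch 1, Cyp2c66 stood at 6.43, 3.78, 4.55 and 4.04 CPM in the 4 LF samples, at 8.46, 5.18 and 11.8 in the 3 HF samples and at 4.85, 4.56, 7.42 and 5.16 in the 4 HFLF samples. In batch 2 its levels were 4.35, 4.39, 3.65 and 5.93 CPM in LF, 5.38, 8.23 and 9.62 in HF and 3.05, 6.14, 6.91, 4.10 and 5.81 in HFLF. In each batch 2 of the 3 HF samples were above every LF sample and the third lay among them. The log2 fold change was 0.81 ± 0.19 (SE, adjusted p = 0.00713), with 0.85 in batch 1 and 0.76 in batch 2, and it was 0.69 (adjusted p = 0.0249) without HF replicate 3 of batch 1. Its abundant neighbours gave other values. Cyp2c65 had a log2 fold change of 0.26 ± 0.10 (SE, adjusted p = 0.0492), under the fold threshold, and Cyp2c55 -0.19 ± 0.19 (SE, adjusted p = 0.46). Cyp2c55 varied widely within groups: in batch 1 it stood at 1655, 1205, 2053 and 1496 CPM in LF and 2268, 1311 and 1377 in HF, and in batch 2 at 994, 915, 913 and 1312 in LF and 663, 741 and 941 in HF. Reads that match several of these related genes may have been split between them.

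Cyp2j6, a P450 of the subfamily known for oxidizing arachidonic acid, lies at chr4:96516138-96553651. In batch 1, Cyp2j6 stood at 107, 91.3, 85.7 and 97.0 CPM in the 4 LF samples, at 133, 86.3 and 139.7 in the 3 HF samples and at 110.3, 85.5, 126 and 116 in the 4 HFLF samples. Batch 2 levels of the gene were 74.6, 89.4, 80.7 and 105 CPM in LF, 97.3, 114 and 113 in HF and 74.8, 102, 102, 85.8 and 87.3 in HFLF. The groups overlapped in each batch. The log2 fold change was 0.32 ± 0.10 (SE, adjusted p = 0.0281), with 0.33 in batch 1 and 0.31 in batch 2, and 0.29 (adjusted p = 0.0717) without HF replicate 3 of batch 1, which ends the call.

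Among the glutathione transferases, Gstm5, of the mu class, lies at chr3:107895854-107898685 within a cluster of 7 Gstm genes. In batch 1, Gstm5 stood at 24.1, 19.99, 20.3 and 18.8 CPM in the 4 LF samples, at 28.6, 23.2 and 32.5 in the 3 HF samples and at 26.2, 19.1, 26.0 and 27.4 in the 4 HFLF samples. The batch 2 values were 20.8, 23.9, 22.9 and 25.1 CPM in LF, 26.8, 33.3 and 28.1 in HF and 20.1, 27.5, 23.4, 20.2 and 24.9 in HFLF. All 3 HF samples of batch 2 were above all 4 LF samples, whereas in batch 1 the lowest HF sample lay within the LF range. It differed by 0.39 ± 0.10 (SE, adjusted p = 0.00815) on the log2 scale, with 0.43 in batch 1 and 0.34 in batch 2. Its neighbour Gstm6 stood in batch 2 at 9.37, 9.67, 10.6 and 10.5 CPM in LF and 11.6, 13.1 and 11.7 in HF, without overlap, and in batch 1 at 10.3, 5.93, 8.21 and 7.13 in LF and 12.8, 10.3 and 11.4 in HF. The Gstm6 log2 fold change was 0.40 ± 0.12 (SE, adjusted p = 0.021), with 0.54 in batch 1 and 0.28 in batch 2. Gstm5 and Gstm6 were called in each of 23 fits that left out 1 library, as were Cyp2c66 and Sult1b1, and the other 10 members were not.

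Gstk1 encodes the kappa-class transferase. In batch 1, Gstk1 stood at 41.8, 30.01, 33.0 and 32.5 CPM in the 4 LF samples, at 53.0, 38.7 and 55.6 in the 3 HF samples and at 53.1, 31.9, 48.6 and 49.0 in the 4 HFLF samples. In batch 2 its levels were 43.5, 43.1, 47.2 and 48.5 CPM in LF, 47.6, 60.02 and 53.7 in HF and 34.3, 52.1, 42.7, 36.8 and 43.6 in HFLF. In each batch 2 of 3 HF samples were above every LF sample, and the log2 fold change was 0.37 ± 0.12 (SE, adjusted p = 0.0289), with 0.52 in batch 1 and 0.24 in batch 2. Gsta1, of the alpha class, stood in batch 1 at 7.81, 8.63, 5.66 and 10.01 CPM in LF and 9.24, 6.44 and 22.5 in HF. In batch 2 it stood at 4.05, 6.35, 5.88 and 7.33 in LF and 8.35, 8.61 and 8.16 in HF. HF replicate 3 of batch 1 had the highest value of all, while the 3 HF samples of batch 2 were close together and above all 4 LF samples. The log2 fold change of Gsta1 was 0.59 ± 0.20 (SE, adjusted p = 0.0339), with 0.67 in batch 1 and 0.50 in batch 2, and 0.31 (adjusted p = 0.181) without that library, which ends the call, as it does for Gstk1 at 0.34 (adjusted p = 0.0641).

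Sult1b1, a sulfotransferase that acts on thyroid hormones and small phenols, was the member called in batch 2 alone as well as with both batches. In batch 1, Sult1b1 stood at 236, 199, 176 and 218 CPM in the 4 LF samples, at 259, 227 and 323 in the 3 HF samples and at 293, 197, 242 and 236 in the 4 HFLF samples. Batch 2 levels of the gene were 137, 173, 148 and 186 CPM in LF, 205, 220.4 and 194 in HF and 159.6, 178, 176, 164 and 169 in HFLF. In batch 2 the HF samples lay above all LF and all HFLF samples, and in batch 1 the same held against LF for 2 of the 3 HF samples. It was called in batch 2 in 6 of the 12 fits that left out 1 library. In HF against LF its log2 fold change was 0.37 ± 0.09 (SE, adjusted p = 0.00759) with both batches, 0.36 ± 0.09 (SE, adjusted p = 0.0372) in batch 2, and 0.38 in batch 1. Sult1a1 and Sult1d1, with higher levels per kb, gave -0.06 ± 0.12 (SE, adjusted p = 0.719) and 0.25 ± 0.12 (SE, adjusted p = 0.099).

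The members lower in HF were 5 P450s and 2 glucuronosyltransferases. Cyp2u1, at chr3:131290491-131303227, encodes a P450 known for hydroxylating long-chain fatty acids. In batch 1, Cyp2u1 stood at 3.92, 5.37, 3.52 and 3.96 CPM in the 4 LF samples, at 1.81, 2.68 and 1.64 in the 3 HF samples and at 2.66, 3.86, 2.06 and 2.75 in the 4 HFLF samples. The batch 2 values were 5.65, 4.17, 4.47 and 2.96 CPM in LF, 3.11, 4.24 and 3.75 in HF and 3.68, 3.13, 2.86, 3.67 and 3.82 in HFLF. The batch 1 HF samples were all below the LF samples, and the batch 2 groups overlapped. Cyp2u1 differed by -0.60 ± 0.17 (SE, adjusted p = 0.0167) on the log2 scale, with -1.05 in batch 1 and -0.22 in batch 2, and -0.48 (adjusted p = 0.0564) without HF replicate 3 of batch 1. The test of a batch by diet interaction called 0 of 74 members for HF against LF (0% of all genes) and 0 for HFLF against LF (0%) in edgeR. At an unadjusted p under 0.05 it gave 6 members (6.56% of all genes) and 18 members (7.58%). The interaction was not run in another tool.

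Cyp2w1, a P450 known from colon tumors and fetal gut, stood in batch 1 at 13.2, 17.9, 14.6 and 10.4 CPM in LF and 8.94, 9.33 and 2.32 in HF, and in batch 2 at 13.2, 9.14, 10.8 and 8.91 in LF and 8.27, 7.71 and 9.11 in HF. The HF samples of batch 1 were below all LF samples, by far the lowest being replicate 3. For Cyp2w1 the log2 fold change was -0.68 ± 0.23 (SE, adjusted p = 0.0327), with -1.04 in batch 1 and -0.32 in batch 2, and -0.46 (adjusted p = 0.0681) without that replicate. Of the Cyp2d cluster on chromosome 15, Cyp2d34 had the highest level, at 102 CPM per kb. In batch 1, Cyp2d34 stood at 291, 366, 268 and 277 CPM in the 4 LF samples, at 187, 305 and 154 in the 3 HF samples and at 193, 308, 201 and 223 in the 4 HFLF samples. In batch 2 its levels were 289, 356, 306 and 289 CPM in LF, 242, 253 and 274 in HF and 414, 271, 336, 367 and 311 in HFLF. The 3 HF samples of batch 2 were below all 4 LF samples, and in batch 1 a single HF sample lay within the LF range. Cyp2d34 had a log2 fold change of -0.38 ± 0.14 (SE, adjusted p = 0.0443), with -0.48 in batch 1 and -0.28 in batch 2. Cyp2d22 had -0.32 ± 0.11 (SE, adjusted p = 0.031), with -0.34 in batch 1 and -0.29 in batch 2. Cyp2d12, which did not pass, gave -0.60 ± 0.27 (SE, adjusted p = 0.088) with values in HF of 28.0, 52.2 and 7.43 CPM in batch 1. Cyp4f17 gave -0.41 ± 0.14 (SE, adjusted p = 0.0276) and -0.39 in batch 1 and -0.44 in batch 2, with 5.05, 3.61, 3.78 and 3.82 CPM in LF and 2.83, 3.01 and 3.14 in HF of batch 2. Without HF replicate 3 of batch 1, Cyp2d34 was at -0.29 (adjusted p = 0.135), Cyp2d22 at -0.21 (adjusted p = 0.0928) and Cyp4f17 at -0.34 (adjusted p = 0.0839), and none of them was called.

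The Ugt1a genes share their last exons and differ in a first exon that sets which substrates are conjugated. Ugt1a9 and Ugt1a10 were near 0 while Ugt1a7c had a mean of 172 CPM, so reads in the shared exons had not been credited to every Ugt1a locus, and levels per kb of these genes use only the bases that no other gene covers. How such reads were treated is not given in the sources used here, which leaves the Ugt1a levels uncertain. Ugt1a2 lies at chr1:88200611-88220002. In batch 1, Ugt1a2 stood at 5.67, 8.35, 9.81 and 7.10 CPM in the 4 LF samples, at 5.84, 6.93 and 3.77 in the 3 HF samples and at 8.44, 7.99, 6.84 and 10.9 in the 4 HFLF samples. Batch 2 levels of the gene were 5.02, 2.59, 3.65 and 2.72 CPM in LF, 2.44, 1.39 and 2.43 in HF and 5.04, 2.62, 3.68, 4.53 and 4.12 in HFLF. All samples of batch 1 were higher than those of the same diet in batch 2, and in batch 2 the HF samples were below all LF and all HFLF samples. The log2 fold change of Ugt1a2 in HF against LF was -0.60 ± 0.18 (SE, adjusted p = 0.0211), with -0.50 in batch 1 and -0.71 in batch 2, and -0.50 (adjusted p = 0.0636) without HF replicate 3 of batch 1. Ugt1a6b gave -0.43 ± 0.16 (SE, adjusted p = 0.0464), with -0.40 in batch 1 and -0.48 in batch 2, and -0.36 (adjusted p = 0.119) without that library. The abundant Ugt1a7c, Ugt1a1 and Ugt1a6a gave 0.09 ± 0.12 (SE, adjusted p = 0.59), -0.03 ± 0.08 (SE, adjusted p = 0.819) and 0.12 ± 0.15 (SE, adjusted p = 0.589), and Ugt2b34, the leading Ugt2 gene, 0.13 ± 0.07 (SE, adjusted p = 0.189).

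**Figure D2:**
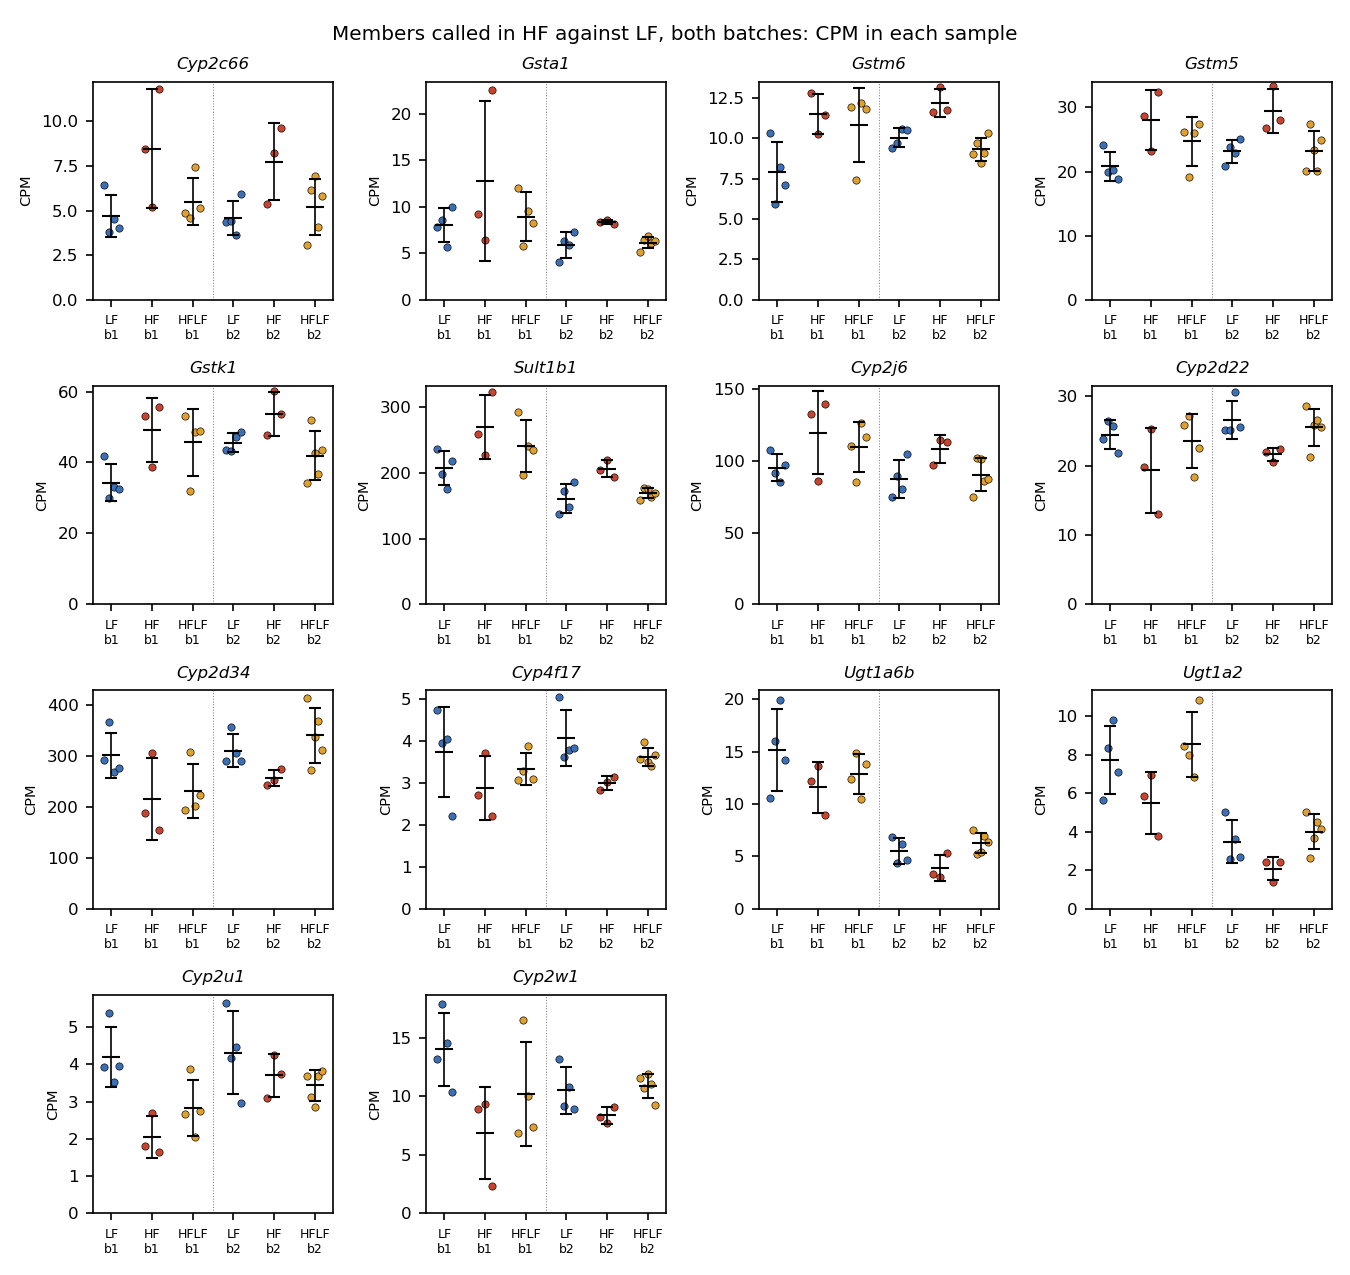
CPM in each sample (y axis, from 0) of the 14 members called in HF against LF with both batches together, with 1 point a sample, and the mean and SD of each diet group in batch 1 (b1) and batch 2 (b2). The 7 genes higher in HF come first. The points of HF replicate 3 of batch 1 include the highest for Cyp2c66, Cyp2j6, Gsta1 and Sult1b1, and the lowest for Cyp2u1, Cyp2w1 and Cyp2d34.

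By family, the median log2 fold change in HF against LF was taken over the members tested with both batches, in batch 1 and in batch 2, in that order below, with the range of the medians when each library in turn was left out in parentheses. Over 7 Gstm genes it was 0.23 (0.16 to 0.33), 0.21 (0.03 to 0.41) and 0.20 (0.16 to 0.27). The 3 Gsta genes had 0.52 (0.31 to 0.66), 0.67 (-0.02 to 0.95) and 0.26 (0.15 to 0.49), the 2 Gstp genes 0.24 (0.20 to 0.30), 0.23 (0.07 to 0.33) and 0.24 (0.18 to 0.32), and Gstk1 alone 0.37 (0.34 to 0.43), 0.52 (0.42 to 0.66) and 0.24 (0.16 to 0.32). The 3 tested Gstt genes had 0.06 (0.04 to 0.12), 0.08 (-0.08 to 0.17) and 0.04 (0.00 to 0.08), and the 2 Gsto genes -0.20 (-0.27 to -0.07), -0.55 (-0.66 to -0.38) and 0.14 (0.08 to 0.23). For the 26 Cyp2 genes tested with both batches (27 in batch 1 and 25 in batch 2) the medians were -0.17 (-0.18 to -0.12), -0.27 (-0.42 to -0.15) and -0.12 (-0.22 to -0.01), for the 11 Cyp4 genes (12 in batch 2) -0.10 (-0.12 to -0.03), -0.16 (-0.27 to -0.13) and -0.07 (-0.11 to 0.01), and for the 3 Cyp3 genes 0.10 (-0.10 to 0.18), 0.10 (0.03 to 0.94) and -0.46 (-0.61 to -0.37). The 6 Ugt1 genes had -0.21 (-0.27 to -0.15), -0.23 (-0.31 to -0.17) and -0.06 (-0.18 to 0.01), and the 5 Ugt2 genes 0.18 (0.11 to 0.25), 0.24 (0.05 to 0.33) and 0.11 (0.06 to 0.20). The 4 tested Sult1 genes had 0.10 (0.05 to 0.15), 0.19 (0.04 to 0.33) and 0.05 (-0.002 to 0.11), and Sult2b1, the other sulfotransferase tested, 0.07 (0.01 to 0.13), -0.10 (-0.15 to -0.02) and 0.23 (0.12 to 0.31). For 11 of these 13 families the range was wider in batch 1 than in batch 2. Without HF replicate 3 of batch 1, the batch 1 medians were -0.02 for Gsta, 0.41 for Gstm, 0.17 for Gstt, -0.15 for Cyp2 and 0.40 for Cyp3, and those with both batches 0.31 for Gsta, 0.12 for Gstt, -0.07 for Gsto, -0.03 for Cyp4 and -0.03 for Cyp3. When the filter on low counts was dropped, the Ugt1 median turned to 0.04 with both batches and 0.03 in batch 2, and that of Sult1 to -0.05 and -0.08. The median of the other sulfotransferases, which was Sult2b1 alone with the filter, turned to -0.97 with both batches and -0.94 in batch 2, over 4 loci. The remaining medians moved without a turn of sign. Cyp3 in batch 1 became 0.715 over 7 loci, and Gsta 0.28, 0.37 and 0.13 over 4 loci, in the order above. Ugt2 became 0.12 in batch 1 and 0.04 in batch 2, and Sult1 0.05 in batch 1. DESeq2 gave -0.105 for Cyp3 and 0.28 for Gsto in batch 2. Scaling by relative log expression changed the sign of none of the family medians in HF against LF. These medians are descriptions with no test, and the genes of a family are not replicates of a diet.

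The second question was whether mice returned to the low-fat diet still differed from mice that had eaten it throughout. In HFLF against LF, 0 members were called by edgeR in batch 1 (0% of all genes), in batch 2 (0.00696%) and with both batches together (0%). DESeq2 also called 0 members in each. At an unadjusted p under 0.05 there were 13 members in batch 1 (5.29% of all genes), 4 in batch 2 (4.65%) and 3 with both batches (4.11%). The 13 depended on single libraries: it became 2 without LF replicate 2 (2.17% of all genes), 5 without LF replicate 4 (4.23%), 3 without HFLF replicate 1 (2.39%), 4 without HFLF replicate 3 (3.41%) or 4 (2.46%), and 25 without HFLF replicate 2 (14.8%). The median log2 fold change of the members was 0.08 in batch 1, -0.01 in batch 2 and 0.06 with both. A p that misses the threshold does not show that these groups were alike.

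The third question was how mice kept on the high-fat diet differed from those returned to the low-fat diet. The comparison shares its HF samples with the first and its HFLF samples with the second. In batch 2, 16 of 74 members were called in HF against HFLF, or 21.6%, against 14.5% of all genes. Of them 11 were higher in HF (5.61% of all genes) and 5 lower (8.89%). DESeq2 called 19 of 64 (19.0%), these 16 among them. With both batches together 5 of 74 members were called (10.3% of all genes), 3 higher (4.9%) and 2 lower (5.44%), and DESeq2 called 7 of 64 (13.6%). In batch 1, 0 of 75 were called by edgeR (0.00693% of all genes) and 0 by DESeq2, and 8 had an unadjusted p under 0.05 (10.9% of all genes). The share of all genes called in batch 2 also depended on single libraries. The count of members was 0 without HF replicate 2 (0.0757% of all genes), where 21 members had an unadjusted p under 0.05 in edgeR (22.7% of all genes). It was 2 without HF replicate 3 (4.71%) or HFLF replicate 1 (6.13%), 3 without HFLF replicate 4 (6.66%) and 9 without HF replicate 1 (13.1%). The members were 1 higher and 1 lower without HF replicate 3 (1.36% and 3.34% of all genes), 2 higher and 0 lower without HFLF replicate 1 (1.79% and 4.34%), 3 higher and 0 lower without HFLF replicate 4 (1.98% and 4.68%) and 8 higher and 1 lower without HF replicate 1 (5.64% and 7.42%).

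Of the 11 higher in batch 2, 10 were glutathione transferases and the other was Sult1b1, at 0.29 ± 0.09 (SE, adjusted p = 0.0355). Gstp1, the pi-class transferase, stood at 91.1, 114 and 102 CPM in HF and 68.9, 89.4, 83.0, 73.6 and 80.8 in HFLF of batch 2. Gstm1, the mu-class gene of highest level per kb, stood at 127, 133 and 135 CPM in HF and 87.6, 117, 99.3, 104 and 114 in HFLF. For both genes every HF sample was above every HFLF sample. The log2 fold changes were 0.37 ± 0.10 (SE, adjusted p = 0.0238) for Gstp1 and 0.33 ± 0.09 (SE, adjusted p = 0.0238) for Gstm1. In batch 1 the same comparison gave 0.00 ± 0.17 and -0.37 ± 0.27, neither called. Over the 18 tested Gst genes the median log2 fold change was 0.31 in batch 2 (0.28 to 0.36 when each library in turn was left out, all genes -0.01), -0.06 in batch 1 (-0.19 to 0.01, all genes 0.00) and 0.09 with both batches (0.05 to 0.19). Over the 7 Gstm genes it was 0.33 in batch 2 (0.28 to 0.39), -0.14 in batch 1 (-0.26 to -0.03) and -0.005 with both (-0.03 to 0.19), the last of no stable sign. Without HF replicate 3 of batch 1 the Gst median was 0.01 in batch 1 and 0.19 with both batches, and the Gstm median -0.08 and 0.19. An interaction of batch with this comparison was not tested. The others were Gstm6 at 0.38 ± 0.08 (SE, adjusted p = 0.0152), Gstm2 at 0.31 ± 0.08 (SE, adjusted p = 0.0249), Gstm3 at 0.46 ± 0.13 (SE, adjusted p = 0.0298), Gstm5 at 0.34 ± 0.10 (SE, adjusted p = 0.0378), Gstp2 at 0.31 ± 0.09 (SE, adjusted p = 0.0355), Gstk1 at 0.36 ± 0.11 (SE, adjusted p = 0.0378), Gsta1 at 0.44 ± 0.14 (SE, adjusted p = 0.0441) and Gsto1 at 0.28 ± 0.09 (SE, adjusted p = 0.0463). None of them was called in batch 1, where Gstm6 was at 0.10, Gstm2 at -0.08, Gstm3 at -0.50, Gstm5 at 0.20, Gstp2 at 0.00, Gstk1 at 0.12, Gsta1 at 0.53, Gsto1 at 0.08 and Sult1b1 at 0.17. Without HFLF replicate 1 of batch 2 the calls made were those of Gstm1 at 0.28 (adjusted p = 0.0456) and Gstm6 at 0.37 (adjusted p = 0.0346). The rest of the 11 then ran from 0.243 (Gsto1) to 0.385 (Gsta1), and were not called. Without HF replicate 2 the 11 log2 fold changes ran from 0.25 to 0.47, and none was called. Gstp1 and Gstp2, and the Gstm genes among themselves, are close in sequence and may have shared reads.

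Markers of several cell types moved with this comparison in batch 2. Of all genes tested there, 5.61% were called higher in HF and 8.89% lower. The share of all genes called was 14.5% with all samples, 0.0757% without HF replicate 2 and 6.13% without HFLF replicate 1. Batch 2 marker calls below use all its samples, and are not given without these libraries. Of 14 marker lists, the sums of 5 did not overlap between the HF and HFLF samples, 4 of them higher in HF. The sum of the 8 absorptive colonocyte genes in the table (of 9 listed, led by Car1) was 7913, 8721 and 8279.9 CPM in HF, 5806, 7758, 7828, 6099 and 7731 in HFLF and 5949.7, 6576, 7443 and 8840.0 in LF, and edgeR called 1 of 8 genes, Slc51a, higher in HF than in HFLF. That of the 7 enteroendocrine genes, led by Chgb, was 442, 432 and 434 CPM in HF, 322, 297, 329, 359 and 391 in HFLF and 353, 295, 395 and 396 in LF, with 3 of 7 higher, Gcg, Insl5 and Pyy. That of the 7 small intestinal enterocyte genes, led by Sis and with Apoa4, Fabp1 and Lct under 1 CPM on average, was 259, 141 and 176 CPM in HF, 86.0, 98.3, 118, 100.4 and 106 in HFLF and 119, 78.0, 124 and 138 in LF, with 4 of 6 higher, Alpi, Fabp1, Fabp6 and Sis. That of the 6 hepatocyte genes, nearly all Ttr, was 36.7, 32.7 and 33.5 CPM in HF, 18.5, 20.9, 22.3, 25.5 and 23.5 in HFLF and 18.9, 25.3, 21.0 and 27.0 in LF, with both tested genes higher, Alb and Ttr. The sum of the 5 endothelial genes, led by Vwf and with Cdh5, Kdr and Plvap under 1 CPM, was 12.4, 12.03 and 13.8 CPM in HF, 16.4, 17.1, 15.0, 16.3 and 15.3 in HFLF and 16.3, 17.1, 19.5 and 12.4 in LF, with 1 of 3 lower, Vwf. In the other lists the sums overlapped, and calls were made for 2 of 8 goblet cell genes (Agr2 and Tff3, higher), 2 of 8 stem and dividing cell genes (1 higher and 1 lower) and 1 of 6 immune genes (Cd3e, lower). No marker was at 0 in all samples. In batch 1 the sums of 13 lists overlapped between HF and HFLF, the endothelial sum was again lower in HF (12.3, 14.3 and 6.84 CPM against 15.0, 16.6, 15.1 and 18.3), and edgeR called 0 marker genes. The part of these markers in the results on the enzymes was not tested.

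The 5 lower in HF than in HFLF of batch 2 were Ugt1a2 at -0.92 ± 0.26 (SE, adjusted p = 0.0279), Ugt1a6b at -0.67 ± 0.20 (SE, adjusted p = 0.0334), Cyp2d34 at -0.41 ± 0.12 (SE, adjusted p = 0.0288), Cyp2d13 at -0.40 ± 0.12 (SE, adjusted p = 0.0385) and Cyp2w1 at -0.38 ± 0.13 (SE, adjusted p = 0.0488). In batch 1 they were at -0.63, -0.15, -0.10, -0.03 and -0.58, none called. In batch 2 without HF replicate 2 the 5 ran from -0.70 to -0.31, and without HFLF replicate 1 from -0.83 (Ugt1a2) to -0.29 (Cyp2d13). None was called in either fit. Cyp2d13 is annotated by RefSeq as a transcribed pseudogene. With both batches together the called members were Cyp2c66 at 0.60 ± 0.18 (SE, adjusted p = 0.0326), Gstm5 at 0.27 ± 0.09 (SE, adjusted p = 0.0475) and Cyp2r1, a vitamin D 25-hydroxylase, at 0.31 ± 0.10 (SE, adjusted p = 0.0481), all higher in HF, and Ugt1a2 at -0.77 ± 0.18 (SE, adjusted p = 0.0138) and Ugt1a5 at -0.55 ± 0.17 (SE, adjusted p = 0.0335), lower. Cyp2r1 stood in batch 1 at 4.28, 4.62 and 4.82 CPM in HF and 3.26, 3.30, 3.54 and 2.44 in HFLF, without overlap, and in batch 2 at 3.51, 2.91 and 3.26 and 2.60, 3.13, 2.73, 3.43 and 3.48, with overlap. Without HF replicate 3 of batch 1, 1 of the 5 calls was made (3.47% of all genes were called), that of Ugt1a2 at -0.67 (adjusted p = 0.0417). The others were then at 0.49 (adjusted p = 0.0974) for Cyp2c66, 0.24 (adjusted p = 0.106) for Gstm5, 0.27 (adjusted p = 0.105) for Cyp2r1 and -0.41 (adjusted p = 0.102) for Ugt1a5. No member called here in batch 2 was called in all 12 fits that left out 1 library.

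**Figure D3:**
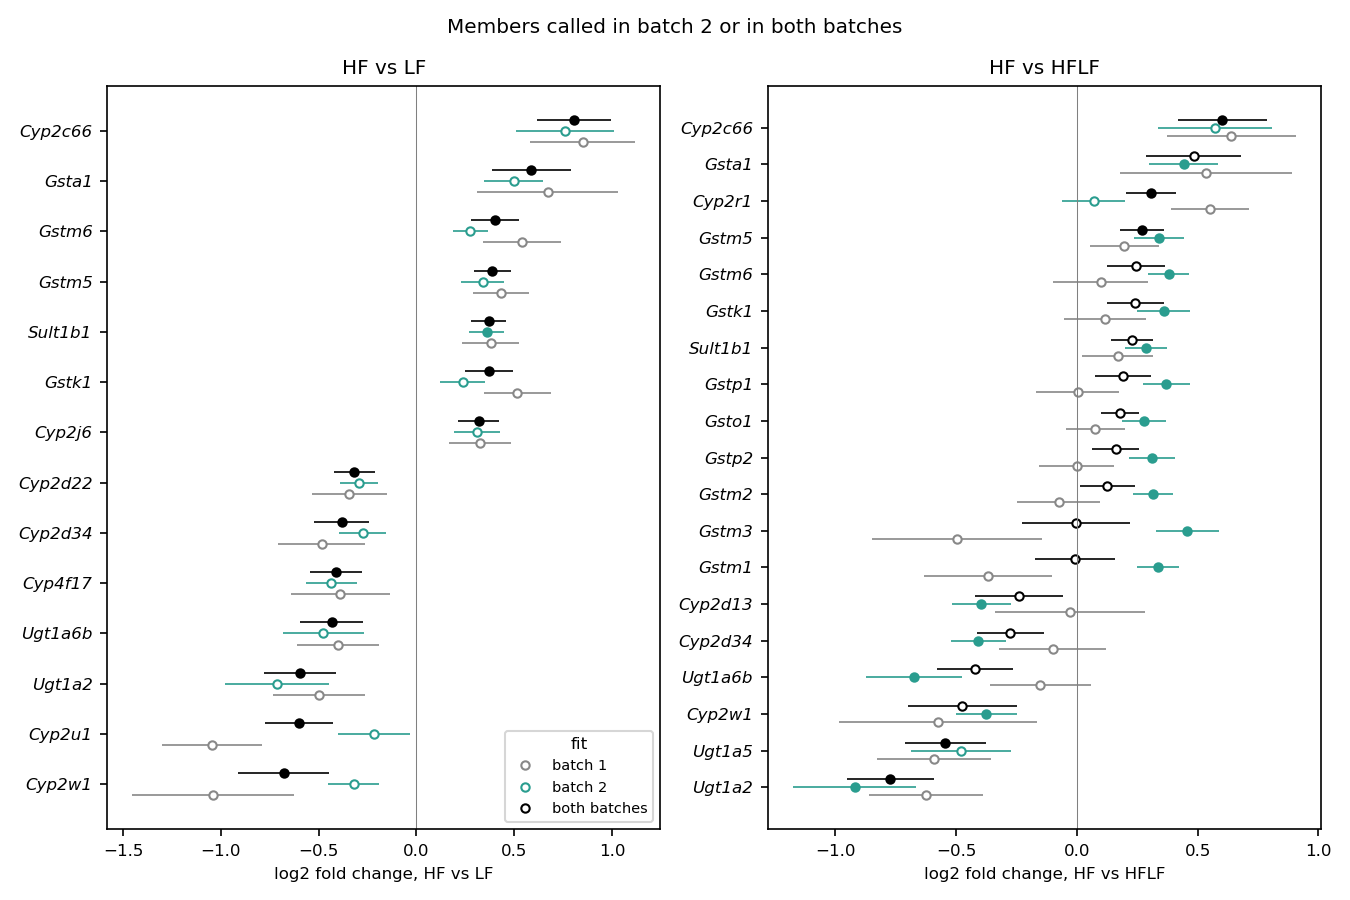
Log2 fold change (x axis) with its SE of the members called in batch 2 or with both batches together, for HF against LF (left) and HF against HFLF (right), from the fits of batch 1, batch 2 and both batches. Filled points passed the test. In the right panel Gstm1, Gstm2 and Gstm3 lie above 0 in batch 2 and below 0 in batch 1, and Gstp1 and Gstp2 lie near 0 in batch 1.

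Receptors, cofactor enzymes and transporters of the same pathways were followed through lists of genes. Of 16 tested receptors and regulators, 0 were higher and 3 lower in HF than LF with both batches together (all genes 9.0% and 9.11%), and the list's median log2 fold change was -0.13 (all genes -0.01). Vdr, the vitamin D receptor, stood in batch 1 at 432, 571, 479.6 and 418 CPM in LF and 344, 418 and 276 in HF, and in batch 2 at 498, 469, 479.6 and 464 and 412, 361 and 414. Each HF sample was below the LF samples of its batch, in batch 1 for 1 of them by less than the rounding shows, and the log2 fold change was -0.36 ± 0.09 (SE, adjusted p = 0.00823). The fatty acid receptors Ppara and Ppard gave -0.37 ± 0.08 (SE, adjusted p = 0.00522) and -0.40 ± 0.10 (SE, adjusted p = 0.008). Without HF replicate 3 of batch 1 the 3 were at -0.28 (adjusted p = 0.0289) for Vdr, -0.29 (adjusted p = 0.0182) for Ppara and -0.34 (adjusted p = 0.0288) for Ppard, and each was called. The aryl hydrocarbon receptor Ahr, the pregnane X receptor Nr1i2 and Nfe2l2 were on the list and were not called. In HF against HFLF with both batches, Vdr at -0.32 ± 0.09 (SE, adjusted p = 0.0223), Ppara at -0.30 ± 0.08 (SE, adjusted p = 0.0164) and Ppard at -0.28 ± 0.10 (SE, adjusted p = 0.0427) were called. None of these 3 calls held without that library, at -0.23 (adjusted p = 0.0741), -0.23 (adjusted p = 0.0565) and -0.23 (adjusted p = 0.129). Of all genes, 5.44% were called lower in this comparison with all samples and 1.58% without that library.

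Of 39 tested other phase I enzymes, 5 were higher and 1 lower in HF than LF with both batches together, and 2 higher and 1 lower without HF replicate 3 of batch 1. For this and the next lists, 9.0% of all genes were called higher and 9.11% lower with all samples, and 5.97% and 5.04% without that library. The carboxylesterase Ces2e gave 0.32 ± 0.09 (SE, adjusted p = 0.0123), the aldo-keto reductase Akr1c13 0.33 ± 0.11 (SE, adjusted p = 0.0267), and the flavin monooxygenase Fmo5, the 1 lower, -0.41 ± 0.12 (SE, adjusted p = 0.0157). Without that library they were at 0.28 (adjusted p = 0.0373), 0.24 (adjusted p = 0.0893) and -0.28 (adjusted p = 0.0425), which ends the call of Akr1c13. Of 14 tested other phase II enzymes 1 was higher, the microsomal glutathione transferase Mgst1. In batch 1, Mgst1 stood at 171, 122, 128 and 152 CPM in the 4 LF samples, at 239, 160.4 and 283 in the 3 HF samples and at 224, 126, 221 and 210.2 in the 4 HFLF samples. The batch 2 values were 110.3, 133, 131 and 160.3 CPM in LF, 159, 207 and 178 in HF and 114, 152, 128, 125 and 148 in HFLF. In each batch 2 of 3 HF samples were above every LF sample, and the log2 fold change was 0.55 ± 0.14 (SE, adjusted p = 0.00854), and 0.49 (adjusted p = 0.0266) without that library. Of 17 genes of cofactor supply, 3 were higher and 1 lower. The glutathione reductase Gsr gave 0.27 ± 0.07 (SE, adjusted p = 0.0109) and Ugp2, which makes UDP-glucose, 0.31 ± 0.10 (SE, adjusted p = 0.0246). Slc35b1, of the nucleotide sugar transporter family, gave 0.37 ± 0.08 (SE, adjusted p = 0.00531), and the sulfate transporter Slc26a2 -0.31 ± 0.07 (SE, adjusted p = 0.00727). Without that library Gsr was at 0.22 (adjusted p = 0.031), under the fold threshold, Ugp2 at 0.31 (adjusted p = 0.0467), Slc35b1 at 0.35 (adjusted p = 0.0162) and Slc26a2 at -0.27 (adjusted p = 0.0248). Of 13 genes of P450 partners and heme supply, 0 were higher and 1 lower, Ppox at -0.28 ± 0.09 (SE, adjusted p = 0.0234), a call lost without that library at -0.18 (adjusted p = 0.0764). Of 18 transporters 1 was higher, Abcg2 at 0.30 ± 0.10 (SE, adjusted p = 0.0328), and 2 were lower, Abcc6 at -0.59 ± 0.14 (SE, adjusted p = 0.00635) and Slco4a1 at -0.43 ± 0.11 (SE, adjusted p = 0.00912). Without that library Abcg2 was at 0.23 (adjusted p = 0.102) and not called, Abcc6 at -0.49 (adjusted p = 0.0227) and Slco4a1 at -0.37 (adjusted p = 0.0312).

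Promoters of 3 of the genes that were higher together in HF than LF are shown because they hold the core of the antioxidant response element, written TGACNNNGC, on either strand. RefSeq (GRCm38.p6) gave a promoter of 300 bases for 131 members, of which 9 (6.87%) held these letters, against 12.4% of all 32851 promoters. Among the 7 members higher in HF, 3 held them, and among the 7 lower, of which 2 had a promoter, 0. Among the 11 members higher in HF than in HFLF of batch 2, 1 held them, and among the 5 lower, of which 2 had a promoter, 0. The motif and the promoters were chosen after the fold changes were seen, and a match is a description of letters, not of a site in use. The xenobiotic response element, TNGCGTG, was in 4 of the 131 (3.05%) and in 5.07% of all promoters. In the sequences, read 5′ to 3′ on the gene's strand, capitals mark the match to TGACNNNGC or its reverse complement. The windows are chr19:39113648-39113947 (plus strand) for Cyp2c66, chr4:96553602-96553901 (minus strand) for Cyp2j6 and chr3:107895604-107895903 (plus strand) for Gstm5.
Cyp2c66: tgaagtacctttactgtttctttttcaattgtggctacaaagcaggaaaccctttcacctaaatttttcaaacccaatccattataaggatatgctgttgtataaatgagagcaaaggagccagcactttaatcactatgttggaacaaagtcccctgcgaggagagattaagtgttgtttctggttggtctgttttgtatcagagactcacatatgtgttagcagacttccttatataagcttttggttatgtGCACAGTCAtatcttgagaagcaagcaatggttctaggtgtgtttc
Cyp2j6: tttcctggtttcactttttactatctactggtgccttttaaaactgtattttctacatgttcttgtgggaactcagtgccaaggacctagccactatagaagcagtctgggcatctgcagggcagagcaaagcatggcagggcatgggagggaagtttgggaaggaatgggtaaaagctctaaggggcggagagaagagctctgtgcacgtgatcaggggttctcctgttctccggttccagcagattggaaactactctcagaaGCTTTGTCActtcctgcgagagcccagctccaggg
Gstm5: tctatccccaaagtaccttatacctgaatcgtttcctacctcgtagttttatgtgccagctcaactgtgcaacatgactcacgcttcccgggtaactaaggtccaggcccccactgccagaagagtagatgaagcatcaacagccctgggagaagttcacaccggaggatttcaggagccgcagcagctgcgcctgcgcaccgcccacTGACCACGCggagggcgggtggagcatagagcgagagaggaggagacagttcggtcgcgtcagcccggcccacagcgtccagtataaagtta

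The other members named by the rule were not called by edgeR in the fits of either batch or of both. Sult4a1 and Sult5a1 were too low to be tested, and did not exceed 0.226 and 0.0727 CPM. Of the members that follow, DESeq2 called 2, Gsta3 and Gsto2. Cyp4f14, a fatty acid hydroxylase, ranged from 187 to 365 CPM over the 23 samples, Cyp4b1 from 70.9 to 132, Cyp4f16 from 66.8 to 94.5 and Cyp3a13, the leading Cyp3 gene, from 162 to 343. Cyp3a44 and Cyp3a25 were low, at 0.564 to 5.04 and 0.483 to 4.79 CPM. Cyp2f2 ranged from 7.61 to 24.4 CPM. Among transferases, Gsta4 ranged from 31.7 to 52.6 CPM, Gsta3 from 4.21 to 18.1, Gstm7 from 5.27 to 9.77, Gstt1 from 13.3 to 24.6, Gstt2 from 27.9 to 44.5 and Gstt3 from 55.2 to 87.7. Ugt2b5 and Ugt2b35 ranged from 31.3 to 54.9 and 36.9 to 65.1 CPM, and Sult2b1, which sulfates cholesterol, from 20.3 to 39.6. Gsta3 gave 0.52 ± 0.20 (SE, adjusted p = 0.058) in HF against LF with both batches, against 0.53 (adjusted p = 0.0337 in DESeq2), and in HF against HFLF of batch 2 0.47 ± 0.18 (SE, adjusted p = 0.0769), against 0.48 (adjusted p = 0.0406 in DESeq2). Gsto2, the low neighbour of Gsto1, stood in batch 1 at 2.00, 2.56, 2.33 and 2.77 CPM in LF and 1.16, 1.39 and 0.568 in HF and in batch 2 at 1.39, 0.751, 0.932 and 0.747 and 1.07, 0.771 and 0.997. The batch 1 groups did not overlap and the batch 2 groups did, and the log2 fold change with both batches was -0.60 ± 0.23 (SE, adjusted p = 0.0531) in edgeR and -0.59 (adjusted p = 0.0349 in DESeq2). In batch 1 it was -1.23 ± 0.31 (SE, adjusted p = 0.139) in edgeR and -1.23 (adjusted p = 0.00797 in DESeq2).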

How the data were processed

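Per the paper's methods and the submitters' processing notes, the authors filtered reads on base quality, trimmed adapters with cutadapt 1.2.1, mapped reads to mm10 with STAR 2.5 and counted them per gene with featureCounts 1.5.0-p1. The deposited values are raw counts per gene in 23 samples. The strand setting, gene annotation and treatment of reads that map to several genes are not given in the sources used here.

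Counts were filtered with filterByExpr by diet group, scaled by TMM and tested with edgeR 4.0.16 (quasi-likelihood F test, R 4.3.3), with the 3 diets in 1 fit per batch, and with batch as a covariate for both batches together. All genes tested entered the Benjamini-Hochberg adjustment: 14428 in batch 1, 14377 in batch 2 and 14385 in both. The biological coefficient of variation was 0.158, 0.102 and 0.134. SEs are the log2 fold change over the root of F. Exon lengths came from the GENCODE M21 annotation. Alternatives were DESeq2 1.42.0, limma 3.58.1 with a shared mouse across batches, relative log expression scaling, no low-count filter, fits of 2 groups, no fold threshold, a replicate block, and leaving out each sample. Scripts were tested on simulated data.

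Nothing in the labels says that same-numbered samples share a mouse, or that the samples of both batches come from separate mice. The study's methods put 5 mice on each regimen, fewer than the 8 LF, 6 HF and 9 HFLF samples. The fits of both batches treat all samples as independent, so their p-values may count more units than there were mice and measure the spread between samples, which may be technical in part. No libraries of a group agreed within sampling noise. Named were, in each family, the 3 members of highest level per kb, in each comparison up to 10 called higher and 10 called lower, 18 members from the study's lists or known as targets of xenobiotic receptors, and members with a called interaction. Gstm3, Ugt1a9, Ugt1a10 and Cyp2d37-ps were named after their values were seen. Members and lists were chosen with earlier results of these data known.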

Additional observations from a re-analysis of the deposited data

Results flagged for a closer look

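In groups of 4 or 5 samples, a sample was noted where its gap to the nearest other exceeded Dixon's 95% critical share of the group's range. Of 208 groups of named members, 15 held such a sample, and chance gives about 1 in 20 groups. LF replicate 4 of batch 2 had Sult1a1 at 604 CPM, above 533 to 540.0 in the rest of its group. LF replicate 1 of batch 1 had Sult1d1 at 557 CPM, above 408 to 428 in the rest of its group, and Gstt3 at 64.3 CPM, above 57.6 to 58.4 in the rest of its group, and Gstm7 at 7.92 CPM, above 5.27 to 5.50 in the rest of its group. HFLF replicate 2 of batch 1 had Ugt2b34 at 802 CPM, below 988 to 1020.0 in the rest of its group, and Cyp4f14 at 279 CPM, above 251 to 255 in the rest of its group, and Gstm5 at 19.1 CPM, below 26.0 to 27.4 in the rest of its group, and Gstm6 at 7.40 CPM, below 11.8 to 12.1 in the rest of its group, and Sult5a1 at 0 CPM, below 0.0261 to 0.0283 in the rest of its group. LF replicate 3 of batch 2 had Cyp2d22 at 30.6 CPM, above 25.1 to 25.6 in the rest of its group. LF replicate 1 of batch 2 had Cyp4f17 at 5.05 CPM, above 3.61 to 3.82 in the rest of its group, and Cyp1a1 at 0.0604 CPM, above 0 in the rest of its group. LF replicate 3 of batch 1 had Cyp3a25 at 4.79 CPM, above 1.13 to 1.21 in the rest of its group. HFLF replicate 4 of batch 2 had Cyp1a1 at 0.161 CPM, above 0 to 0.0427 in the rest of its group. LF replicate 2 of batch 1 had Cyp1b1 at 0.0346 CPM, above 0 in the rest of its group. The Cyp1a1, Cyp1b1 and Sult5a1 values are near the floor of 3 counts. Groups of 3, HF among them, were not looked at in this way, so HF replicate 3 of batch 1 is not in this list.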

How the results depend on the processing

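The number of members called depended on single libraries. Leaving out each sample in turn gave 4 to 23 members for HF against LF with both batches (14 with all samples), 1 to 11 for HF against HFLF with both batches (5), 0 to 18 for HF against HFLF in batch 2 (16), 0 to 17 for HF against LF in batch 2 (1) and 0 to 7 for HF against LF in batch 1 (0). The share of all genes called, in parentheses, moved as well. Beyond 1.5 times, HF against LF with both batches gave 4 without HF batch 1 replicate 3 (11%), 7 without LF batch 1 replicate 3 (13.3%) or HF batch 2 replicate 2 (12.6%), 8 without LF batch 1 replicate 2 (13.0%) or HF batch 1 replicate 1 (14.2%), 23 without LF batch 2 replicate 4 (22.2%). HF against HFLF with both batches gave 1 without HFLF batch 1 replicate 2 (6.5%) or HF batch 1 replicate 1 (6.38%) or HF batch 1 replicate 3 (3.47%), 2 without HFLF batch 1 replicate 4 (7.53%) or HFLF batch 2 replicate 1 (6.83%) or HFLF batch 2 replicate 4 (7.35%) or HF batch 2 replicate 2 (3.76%) or HF batch 2 replicate 3 (7.4%), 3 without HFLF batch 2 replicate 3 (9.92%), 11 without HF batch 1 replicate 2 (18.5%). In batch 2, HF against HFLF gave 0 without HF batch 2 replicate 2 (0.0757%), 2 without HFLF batch 2 replicate 1 (6.13%) or HF batch 2 replicate 3 (4.71%), 3 without HFLF batch 2 replicate 4 (6.66%), 9 without HF batch 2 replicate 1 (13.1%), and HF against LF 0 without LF batch 2 replicate 1 (0.342%) or LF batch 2 replicate 2 (2.35%) or LF batch 2 replicate 3 (0.286%) or HF batch 2 replicate 2 (0.103%) or HF batch 2 replicate 3 (0.337%), 2 without HFLF batch 2 replicate 3 (6.39%), 3 without HFLF batch 2 replicate 2 (8.17%), 6 without HFLF batch 2 replicate 1 (10.3%), 17 without LF batch 2 replicate 4 (17.9%). In batch 1, HF against LF gave 7 without HF batch 1 replicate 2 (9.25%). The cause was not tested, beyond the loss of a sample from the fit. HFLF against LF, and HF against HFLF in batch 1, gave 0 members in every edgeR and DESeq2 fit run, as did limma for HFLF against LF with both batches, and the interaction gave 0 in every edgeR fit. Their counts at an unadjusted p under 0.05 varied when 1 library was left out: 2 to 25 for HFLF against LF in batch 1 (13 with all samples, and 2.17% to 14.8% of all genes), 4 to 10 in batch 2 (4, 3.74% to 6.07%) and 2 to 7 with both (3, 2.56% to 7.04%), 3 to 17 for HF against HFLF in batch 1 (8, 3.83% to 20.9%), 3 to 14 for the HF interaction (6, 4.32% to 12.7%) and 10 to 25 for the HFLF interaction (18, 4.84% to 16.2%). The pathway and marker lists were refitted without HF replicate 3 of batch 1 as a choice made after seeing the data.

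For HF against LF, DESeq2 called 3 members in batch 1 (3.59% of all genes) and 9 in batch 2 (15.1%), the fit of only the 2 groups 5 in batch 2 (7.82%), and no low-count filter 2 in batch 2 (5.47%). For HF against HFLF with both batches, the fit of only the 2 groups called 3 (8.6%). With the replicate block, HF against LF called 1 member of 75 in batch 1 (0.638% of all genes) and 10 of 74 in batch 2 (13.5%, near the 14.5% of all genes), and the replicate block across batches called 10 for HF against HFLF with both batches (12.7%). For HF against LF with both batches, the block across batches called 21 of 74 members (28.4%, against 19.8% of all genes), 9 higher and 12 lower. A block by number within batch called 19 of 74 (25.7%, against 19.8%), 10 higher and 9 lower. The cause was not tested. Same-numbered samples of different diets did not deviate together throughout (correlations of -0.379 to 0.383 in batch 1 and -0.12 to 0.391 in batch 2, across genes), nor did those of the same diet across batches (-0.324 to 0.221), so the numbers were not taken as pairs. Not every sample correlated best with its own number. The consensus correlation of samples of the same diet and number across batches was -0.102. Counts from limma for HF against LF and HF against HFLF are not given here.

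For the 53 named members, 9360 fold changes under alternatives were compared with the main ones. No value called in either changed sign. A value called in neither changed sign in 333 cases, and 25 of these moved by 1 SE or more. A call was lost in 196 and gained in 139. Cyp2 and Sult1 had the first places in each group, by summed CPM as by CPM per kb. By CPM Ugt2 and Cyp4 came next in each group, and per kb the order of Ugt2, Cyp4 and Ugt1 differed between groups. Counting error limits the Cyp1 genes and other loci near the floor of 3 counts.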

Other observations

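Other marker lists gave these values. The sum of the 8 absorptive colonocyte genes in the table (of 9 listed), led by Car1, ranged from 5806 to 14242 CPM, that of 8 goblet cell genes, led by Muc2, from 18241 to 43887, that of 8 stem and dividing cell genes, led by Mki67, from 319 to 666, that of 7 enteroendocrine genes from 186 to 442 and that of 6 tuft cell genes from 68.1 to 96.5. Sums for fibroblasts ranged from 2.91 to 51.7 CPM, for endothelium from 6.84 to 19.5, for adipocytes from 3.56 to 17.2, for small intestinal enterocytes from 78.0 to 259, for hepatocytes from 18.3 to 36.7 and for posterior Hox genes, led by Hoxb13, from 206 to 392. In HF against LF with both batches, where 9.0% of all genes were called higher and 9.11% lower (5.97% and 5.04% without HF replicate 3 of batch 1), stem and dividing cell genes had 4 higher and 1 lower of 8 tested (1 and 1 without that library), goblet cell genes 3 higher and 0 lower of 8 tested (3 and 0 without that library), enteroendocrine genes 3 higher and 0 lower of 7 tested (4 and 0 without that library), small intestinal enterocyte genes 2 higher and 0 lower of 6 tested (2 and 0 without that library), hepatocyte genes 1 higher and 0 lower of 3 tested (1 and 0 without that library), fibroblast genes 0 higher and 1 lower of 6 tested (0 and 0 without that library) and endothelial genes 0 higher and 1 lower of 4 tested (0 and 1 without that library). In the other lists edgeR called no gene with all samples. In batch 2 the enteroendocrine, small intestinal enterocyte and hepatocyte sums of the HF samples lay above those of all LF samples, and the goblet cell and smooth muscle sums below them. Their part in the results on the enzymes was not tested.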
